A study of Mus musculus with 8 samples.

Results

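Mitochondrial ribosomal proteins were followed in epididymal white fat, a depot beside the testis, through 77 of the 24821 genes of the deposited table. They are all rows annotated as protein-coding whose symbol in the GENCODE M21 annotation starts with Mrpl or Mrps followed by a digit. RNA was sequenced from 4 Ccdc92 knockout (KO) and 4 wild type (WT) libraries of male mice on a C57BL/6 background. The WT mice were littermates of matching age, and both groups received a high-fat diet for 14 weeks, in which fat supplied 60%, protein 20% and carbohydrate 20% of calories. The sources used here do not give the age of the mice or the allele, nor do they limit the deletion to a cell type. No label says that each library came from its own animal, and the p-values therefore reflect only how these samples vary, which may be a technical spread.

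Mitochondria translate the few proteins encoded in their own DNA, which are core subunits of the respiratory chain and ATP synthase, on ribosomes of their own. The ribosomal RNAs of these particles come from mitochondrial DNA, whereas all of their proteins are encoded in the nucleus, made in the cytosol and imported. Some of the proteins have a counterpart in bacterial ribosomes and others are found only in mitochondria. In adipocytes, mitochondria burn fatty acids and supply intermediates for lipid synthesis, and transcription of nuclear genes for mitochondrial proteins is commonly attributed to factors such as NRF1, GABP and YY1.

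Of the 77 genes, 48 carry an Mrpl and 29 an Mrps symbol, on 17 chromosomes. By the place of their proteins in the known structures, 50 belong to the large subunit, among them Mrps18a and Mrps30 despite their symbols, and 26 to the small subunit. Mrps36 has since been assigned to the 2-oxoglutarate dehydrogenase complex and is counted as a member by its symbol only. The promoters of 3 members and a gap between 2 genes are shown here for the binding motif of NRF1, which is written GCGCA, any base, GCGC. Matches are in capitals. Each stretch is upstream sequence from the RefSeq promoter window (GRCm38.p6), read from the strand of the member, up to the base before its first GENCODE exon.
Mrpl45, chr11:97315466-97315715: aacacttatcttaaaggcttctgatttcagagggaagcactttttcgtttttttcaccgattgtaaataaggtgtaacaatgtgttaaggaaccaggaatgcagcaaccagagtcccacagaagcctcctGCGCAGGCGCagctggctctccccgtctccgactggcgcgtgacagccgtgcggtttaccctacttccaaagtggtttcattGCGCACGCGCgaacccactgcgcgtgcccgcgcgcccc
Mrpl12, chr11:120484387-120484612: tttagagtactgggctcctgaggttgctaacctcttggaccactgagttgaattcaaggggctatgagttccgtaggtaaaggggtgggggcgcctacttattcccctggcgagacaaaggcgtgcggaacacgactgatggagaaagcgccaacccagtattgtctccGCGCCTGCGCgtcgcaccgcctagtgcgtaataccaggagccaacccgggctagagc
Mrps15, chr4:126046678-126046924: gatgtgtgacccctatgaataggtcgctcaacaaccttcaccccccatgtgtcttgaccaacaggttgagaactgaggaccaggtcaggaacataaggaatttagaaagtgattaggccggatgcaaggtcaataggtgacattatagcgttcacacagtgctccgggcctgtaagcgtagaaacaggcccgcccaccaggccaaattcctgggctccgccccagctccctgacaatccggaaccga
Mrpl49 to Fau, chr19:6057786-6057843: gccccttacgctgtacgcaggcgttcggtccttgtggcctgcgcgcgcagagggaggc
Mrpl45 and Mrps15 had some of the largest rises of the family, Mrpl45 with NRF1 matches 120 and 38 bases before its start and Mrps15 with none in this window. Mrpl12 has a match 81 bases before its RefSeq start, which lies inside the first GENCODE exon, and a smaller rise. The last stretch, on the minus strand of Mrpl49, is all that lies between the first exons of Mrpl49 and Fau, a gene of the cytosolic ribosome that moved the other way.

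Reads assigned to genes ran from 23681088 to 33817478 per library. Ccdc92, the deleted gene, had normalized counts of 9.19, 5.13, 9.67 and 4.85 in KO replicates 1 to 4, against 54.1, 68.3, 106 and 99.3 in WT replicates 1 to 4. The groups did not overlap, and the log2 fold change was -3.34 (limma SE 0.33, adjusted p = 0.000383). Adipocyte markers were abundant in every library and 9 of 10 were higher in KO, with a summed normalized count of 795501 to 932966 in KO and 201925 to 455527 in WT. All 10 macrophage markers were lower in KO, with sums of 45302 to 71370 in KO and 134999 to 285328 in WT, and no marker of either list was at 0 in any library. Markers of the male reproductive tract summed to 8.49 to 592 in KO, where 3 of 5 were at 0 in at least 1 library, and to 50199 to 112590 in WT. The part of these cell types in the results below was not tested, and in bulk tissue fewer cells of a type and less RNA per cell cannot be told apart. A pair of libraries stood apart. In KO replicate 3, the 10 most abundant genes took 25.5% of reads, with Hbb-bs, a haemoglobin gene, at 5.78%, against 9.45% to 11.4% in the other KO libraries and 5.81% to 6.72% in WT. In WT replicate 4, the tract gene Adam7 was at 0.936, against 7805 to 19829 in the other WT libraries.

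Many transcripts of the mitochondrial ribosome were higher in KO fat, by small amounts. The test was limma on log2(normalized count + 1) over 17798 genes with Benjamini-Hochberg adjustment, and a gene passed at an adjusted p under 0.05. Of the 77 members, 42 rose and 0 fell, whereas 20.2% of all genes tested rose and 21.5% fell. None of the 77 was lower at an unadjusted limma p under 0.05, and edgeR and DESeq2 on the recovered reads also called 0 lower. The median log2 fold change (KO over WT) of the members was 0.29, with quartiles of 0.20 and 0.42, beside -0.01 over all genes tested. Fold changes of the 42 ran from 1.15 to 1.60 and none reached 2-fold, a size that 1145 genes of the whole table exceeded upwards. Every KO library lay above every WT library for 48 members, or 62.3%, as for 21% of all genes, and below for 0 members, as for 21.1% of all genes. All 77 passed the filter on low values, with normalized counts per library of 195 to 1785, so none of them entered only through the group where it was high.

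The number that passed depended on the scaling and on single libraries, whereas the family's median stayed positive under every setting tried. Without KO replicate 3, 31 members rose and the median was 0.25. Without WT replicate 3, 26 rose with a median of 0.29, and without KO replicate 3 and WT replicate 4 together 23 rose with a median of 0.27. Scaling to total reads in place of the deposited size factors moved the median of all genes by -0.17 log2 units, and 10 members then rose with a median of 0.12. Relative to the median of all genes, the members stood at 0.30 with the deposited factors, at 0.30 with total reads and at 0.27 with quantile normalization. Under total reads 1893 genes of the table were higher and 4673 lower, beside 3592 higher and 3831 lower with the deposited factors, and under quantile normalization 4593 were higher and 3257 lower.

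**Figure D1:**
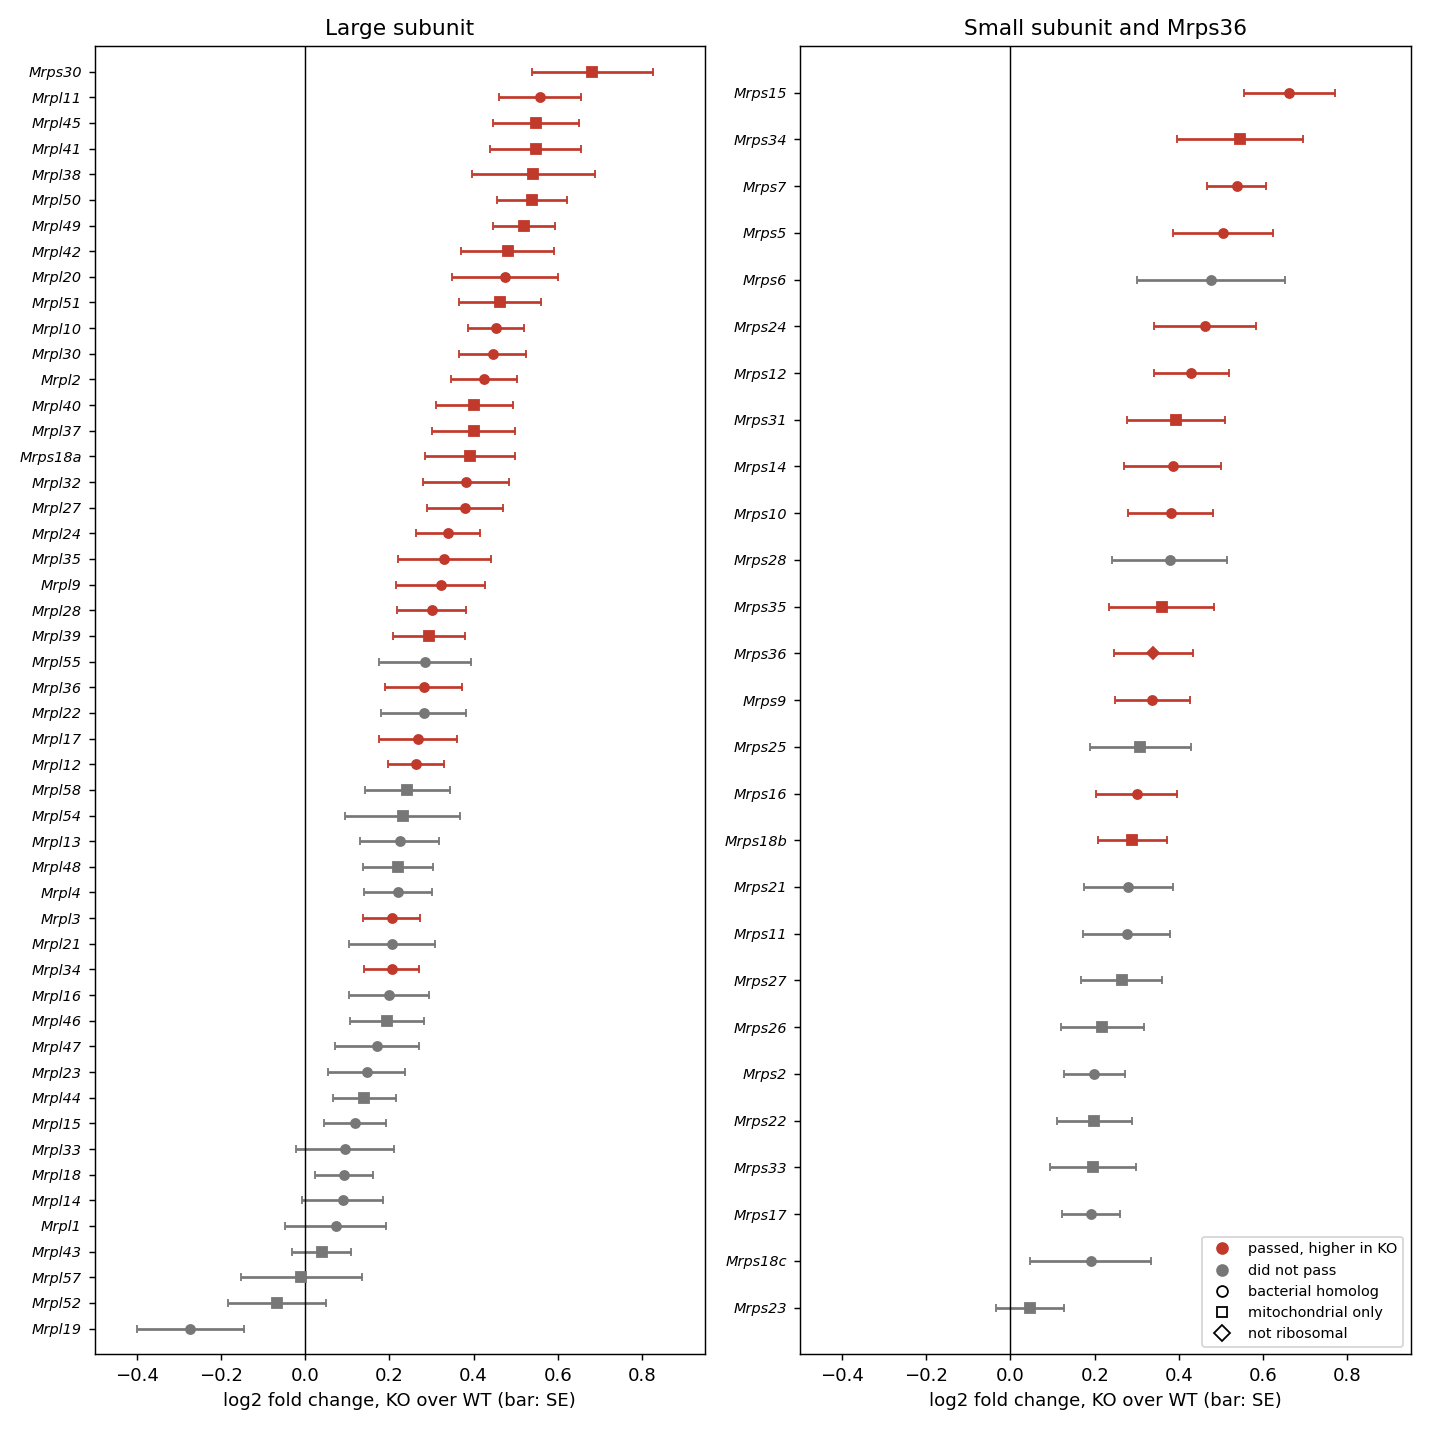
Log2 fold change (KO over WT, horizontal axis) of each of the 77 members, with bars of 1 SE; red points passed the test and grey points did not, circles have a bacterial counterpart, squares are found only in mitochondria and the diamond is Mrps36. Most points lie right of 0, and 3 large-subunit members, Mrpl57, Mrpl52 and Mrpl19, lie left of it without passing.

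The 8 members with the largest rises that passed the test came from both subunits. Mrps30, a mitochondria-specific protein of the large subunit (chr13:118378381-118387252, minus strand), had normalized counts of 518, 473, 716 and 535 in KO replicates 1 to 4, against 313, 373, 313 and 387 in WT replicates 1 to 4. All KO libraries lay above all WT libraries, and KO replicate 3 was the highest. The log2 fold change was 0.68 (limma SE 0.14, adjusted p = 0.00615).

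Mrps15, a small-subunit protein with a bacterial counterpart (chr4:126046925-126055532, plus strand), had 1049, 1004, 1330 and 1222 in KO and 807, 692, 732 and 665 in WT. The highest WT library stayed below the lowest KO library, and the log2 fold change was 0.66 (limma SE 0.11, adjusted p = 0.00218). In the large subunit, Mrpl11, a protein at the base of the stalk that recruits translation factors (chr19:4962147-4966999, plus strand), had 830, 866, 1032 and 779 in KO and 562, 631, 584 and 593 in WT. Its groups were well separated, with a log2 fold change of 0.56 (limma SE 0.10, adjusted p = 0.00281).

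Mrpl45, which lies near the exit of the peptide tunnel and helps to anchor the ribosome to the inner membrane (chr11:97315716-97329920, plus strand), averaged 921 ± 96.9 in KO and 629 ± 55.6 in WT (SD, n = 4 each). Its 4 KO values of 923, 792, 1027 and 942 were all above the WT values of 556, 683, 659 and 617, and it rose by 0.55 (limma SE 0.10, adjusted p = 0.00371). Mrpl41 (chr2:24974117-24975098, minus strand) averaged 605 ± 80.5 in KO and 412 ± 21.9 in WT and rose by 0.55 (limma adjusted p = 0.0045). Mrpl50 (chr4:49512596-49521093, minus strand) averaged 926 ± 69.7 in KO and 637 ± 42.1 in WT and rose by 0.54 with the smallest spread of the 8 (limma SE 0.08, adjusted p = 0.00171). None of these 3 proteins is known from bacterial ribosomes, and in each case the KO and WT libraries did not overlap.

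The remaining pair varied more. Mrps34, a mitochondria-specific small-subunit protein (chr17:24895116-24897502, plus strand), had 737, 814, 1015 and 1009 in KO and 483, 638, 618 and 711 in WT, with a log2 fold change of 0.54 (limma SE 0.15, adjusted p = 0.0188). It no longer passed without KO replicate 3 (limma adjusted p = 0.0527). Exons of Mapk8ip3, on the opposite strand, cover 63.4% of its exons, and those of Nme3, on the same strand, 37.0%, and the strand setting of the counting is not given, so reads of these genes may have been mixed; Mapk8ip3 had a log2 fold change of 0.42. Mrpl38 (chr11:116131817-116138868, minus strand) had 1040, 892, 1320 and 1343 in KO and 705, 815, 719 and 884 in WT, with KO replicate 2 just above WT replicate 4. It rose by 0.54 (limma SE 0.15, adjusted p = 0.0176) and missed the threshold without WT replicate 3 (limma adjusted p = 0.0515).

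**Figure D2:**
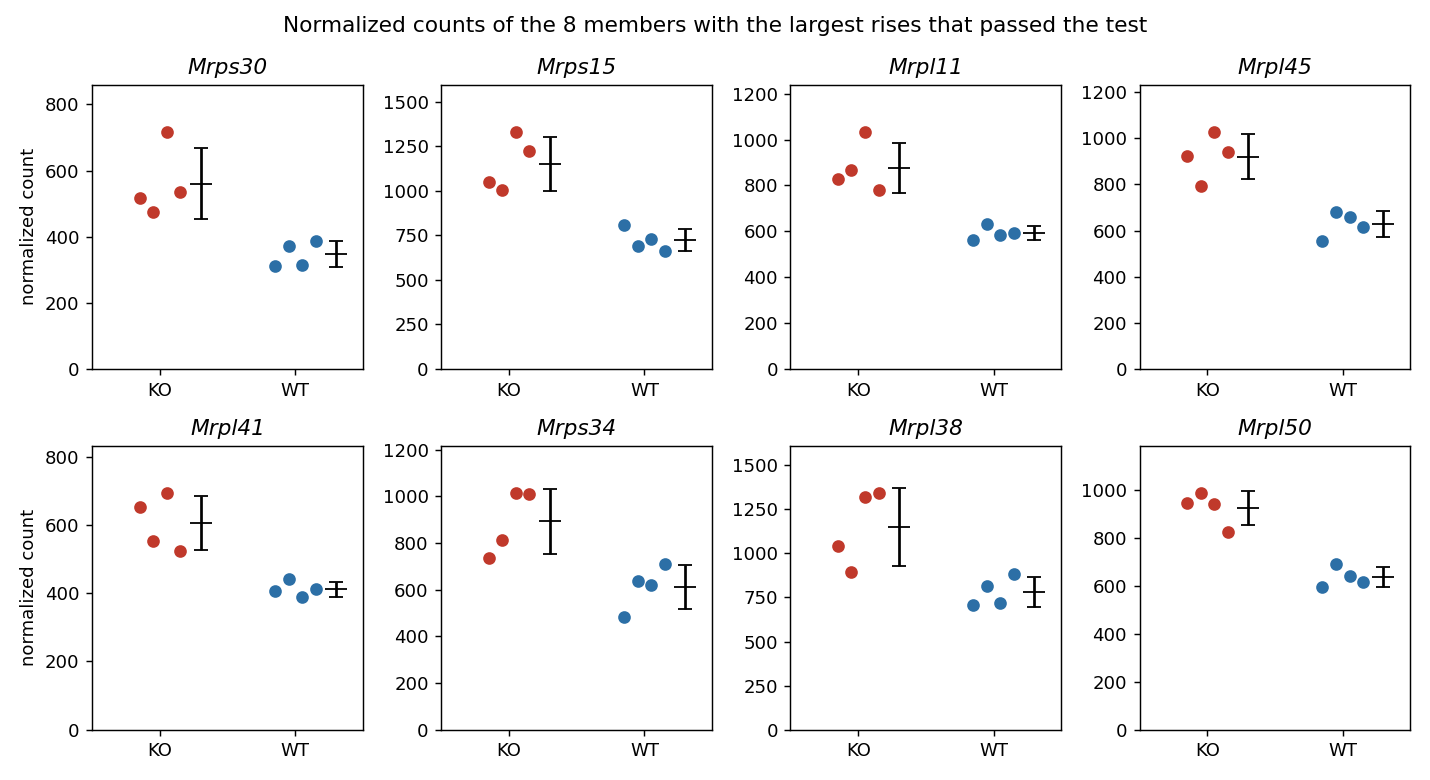
Normalized counts (vertical axis, from 0) of the 8 members with the largest rises that passed the test, in KO and WT libraries; each point is 1 library in replicate order and the bars give mean and SD of 4 libraries. In all 8 panels the KO points lie above the WT points, narrowly so for Mrps34 and Mrpl38.

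The fold change alone did not order the members by how well they were separated. Mrps7, a small-subunit protein with a bacterial counterpart that was picked after its values were seen, had the smallest adjusted p of the family. It was at 1597, 1583, 1747 and 1624 in KO and at 1062, 1184, 1080 and 1189 in WT. The libraries of each group lay close together, and the log2 fold change was 0.54 (limma SE 0.07, adjusted p = 0.000898). Over the family, the median coefficient of variation between libraries was 10% in KO and 6.4% in WT.

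Under all 16 other settings tried, 10 members kept their call, named here because of it: Mrpl11, Mrpl30, Mrpl41, Mrpl45, Mrpl49, Mrpl50, Mrpl51, Mrps7, Mrps15 and Mrps30. A further 7 (Mrpl2, Mrpl10, Mrpl24, Mrpl37, Mrpl40, Mrps5 and Mrps12) kept it under all settings except scaling to total reads. At the other end, Mrps35, a small-subunit member, passed with the largest adjusted p of the 42 (log2 fold change 0.36, limma adjusted p = 0.0475). Its KO values of 495, 469, 625 and 602 overlapped its WT values of 401, 498, 412 and 391. The call was lost when any single library other than KO replicate 2 or WT replicate 2 was left out (limma adjusted p = 0.0564 to 0.117). Mrpl9 and Mrps16, named here for this reason, were the only other members that passed although the groups overlapped. Conversely, 9 members had all KO libraries above all WT libraries and did not pass.

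Rises were spread over both subunits. In the large subunit 28 of 50 genes rose with a median log2 fold change of 0.28, and in the small subunit 13 of 26 with a median of 0.32. Genes with a bacterial counterpart rose in 25 of 46 cases (median 0.28) and genes found only in mitochondria in 16 of 30 (median 0.30). Split both ways, the counts were 16 of 30 for large-subunit genes with a bacterial counterpart, 12 of 20 for large-subunit genes found only in mitochondria, 9 of 16 and 4 of 10 for the same classes of the small subunit. The 4 medians lay between 0.27 and 0.40, and the differences between these classes were not tested. Summed over genes, the large subunit came to 41706 ± 2994 normalized counts in KO and 33451 ± 866 in WT, and the small subunit to 20296 ± 1565 in KO and 15803 ± 689 in WT (SD, n = 4 each).

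Among the parts of the ribosome with a known function, the peptidyl transferase centre protein Mrpl2 (chr17:46646229-46650139) had 1127, 1049, 1248 and 1159 in KO and 787, 870, 850 and 904 in WT. The groups were far apart for a change of this size, with a log2 fold change of 0.42 (limma SE 0.08, adjusted p = 0.00362). Mrpl12, a stalk protein that is also reported to bind the mitochondrial RNA polymerase (chr11:120484613-120489065), had 1100, 1208, 1245 and 1138 in KO and 993, 954, 947 and 1009 in WT. Its lowest KO library was above its highest WT library, and it rose by 0.26 (limma SE 0.07, adjusted p = 0.014). Mrpl58, a peptidyl-tRNA hydrolase that rescues stalled ribosomes and is built into the large subunit (chr11:115403752-115412674), had 665, 604, 729 and 554 in KO and 501, 569, 513 and 565 in WT. The groups overlapped through KO replicate 4, and its log2 fold change, 0.24, was short of the threshold (limma SE 0.10, adjusted p = 0.0854); without KO replicate 4 it passed (limma adjusted p = 0.0391).

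The Mrps18 genes encode 3 related proteins that sit at different places, Mrps18a in the large subunit and the other 2 in the small subunit. Mrps18a (chr17:46110986-46128910) had 839, 704, 1003 and 809 in KO and 667, 618, 630 and 622 in WT and rose by 0.39 (limma SE 0.11, adjusted p = 0.0186). Mrps18b (chr17:35910379-35916389) had 487, 522, 468 and 468 in KO and 369, 426, 386 and 411 in WT and rose by 0.29 (limma SE 0.08, adjusted p = 0.0221). Both were without overlap between groups, but Mrps18b missed the threshold without KO replicate 1, KO replicate 2, WT replicate 1 or WT replicate 3 (limma adjusted p = 0.0509 to 0.0665). Mrps18c (chr5:100798627-100804471) had 495, 488, 685 and 420 in KO and 481, 435, 425 and 461 in WT. KO replicate 3 was far above the rest and KO replicate 4 was the lowest of all 8 libraries, and its log2 fold change, 0.19, was short of the threshold (limma SE 0.14, adjusted p = 0.314).

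Mrps36 (chr13:100735955-100744659), a member by symbol only, had 391, 361, 440 and 400 in KO and 340, 291, 307 and 317 in WT. The groups did not overlap, and it rose by 0.34 (limma SE 0.09, adjusted p = 0.0198), a call lost without KO replicate 3 (limma adjusted p = 0.0515) or WT replicate 3 (0.0575).

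Levels between members can be compared only per length. On the scale of normalized counts per kb of merged exons, levels averaged over all 8 libraries spanned a 23.8-fold range. The order given here is that of this average over both groups. The highest was Mrps21, a small-subunit protein, at 1346 ± 182 in KO and 1102 ± 61.3 in WT (SD, n = 4 each), followed by Mrpl34 at 1123 ± 38.8 in KO and 974 ± 21.1 in WT and by Mrpl2 at 979 ± 70.5 in KO and 729 ± 42.2 in WT, where Mrpl27 was slightly higher at 736 ± 46.1. In KO, Mrps21 and Mrpl34 differed by about the sum of their SDs. The lowest were Mrpl47 at 54.5 ± 3.40 in KO and 48.4 ± 3.11 in WT, Mrps35 at 63.4 ± 8.90 in KO and 49.3 ± 5.69 in WT, and Mrpl15 at 70.4 ± 2.87 in KO and 64.9 ± 3.58 in WT. Within a group, Mrpl19 in KO (63.7 ± 3.54) and Mrps30 (52.0 ± 5.87) and Mrps10 (60.3 ± 7.06) in WT lay below Mrpl15. Merged exons include every annotated isoform, and this affects the order. With the length of the principal transcript, in the same average over both groups, the range was 27.4-fold and Mrpl33 went to place 2, against place 65 with merged exons. On that scale Mrps21 was the highest in KO at 2039 ± 276 and level with Mrpl33 in WT, at 1669 ± 92.8 for Mrps21 and 1671 ± 46.7 for Mrpl33. Mrpl47 and Mrpl19 were the lowest, at 71.6 ± 4.47 and 69.5 ± 3.85 in KO and at 63.6 ± 4.09 and 84.7 ± 13.6 in WT.

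The members at the ends of this order had log2 fold changes from 0.12 to 0.42. Mrps21, at 0.28 on the log2 scale, missed the threshold in limma (adjusted p = 0.06) and passed in edgeR's quasi-likelihood test (adjusted p = 0.0436). Mrpl34 rose by 0.21 (limma adjusted p = 0.0324), a call that 6 of the 8 single-library omissions removed, and Mrpl47 and Mrpl15 had 0.17 (limma adjusted p = 0.202) and 0.12 (0.228) and did not pass.

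The 3 members with a negative fold change, named because they were the exceptions, were all of the large subunit. Mrpl19 (chr6:81957851-81965958) had 365, 350, 354 and 320 in KO and 497, 411, 450 and 336 in WT. The KO libraries were close together, and WT replicate 4 lay among them. Its log2 fold change, -0.27, was short of the threshold (limma SE 0.13, adjusted p = 0.114), and without WT replicate 4 it was -0.38 and passed (limma adjusted p = 0.0225). Exons of Gcfc2 on the opposite strand cover 36.0% of those of Mrpl19, and Gcfc2 had a log2 fold change of -0.36. Mrpl52 (-0.07) and Mrpl57 (-0.01) were close to 0, and Mrpl57 turned positive under quantile normalization, edgeR and DESeq2.

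**Figure D3:**
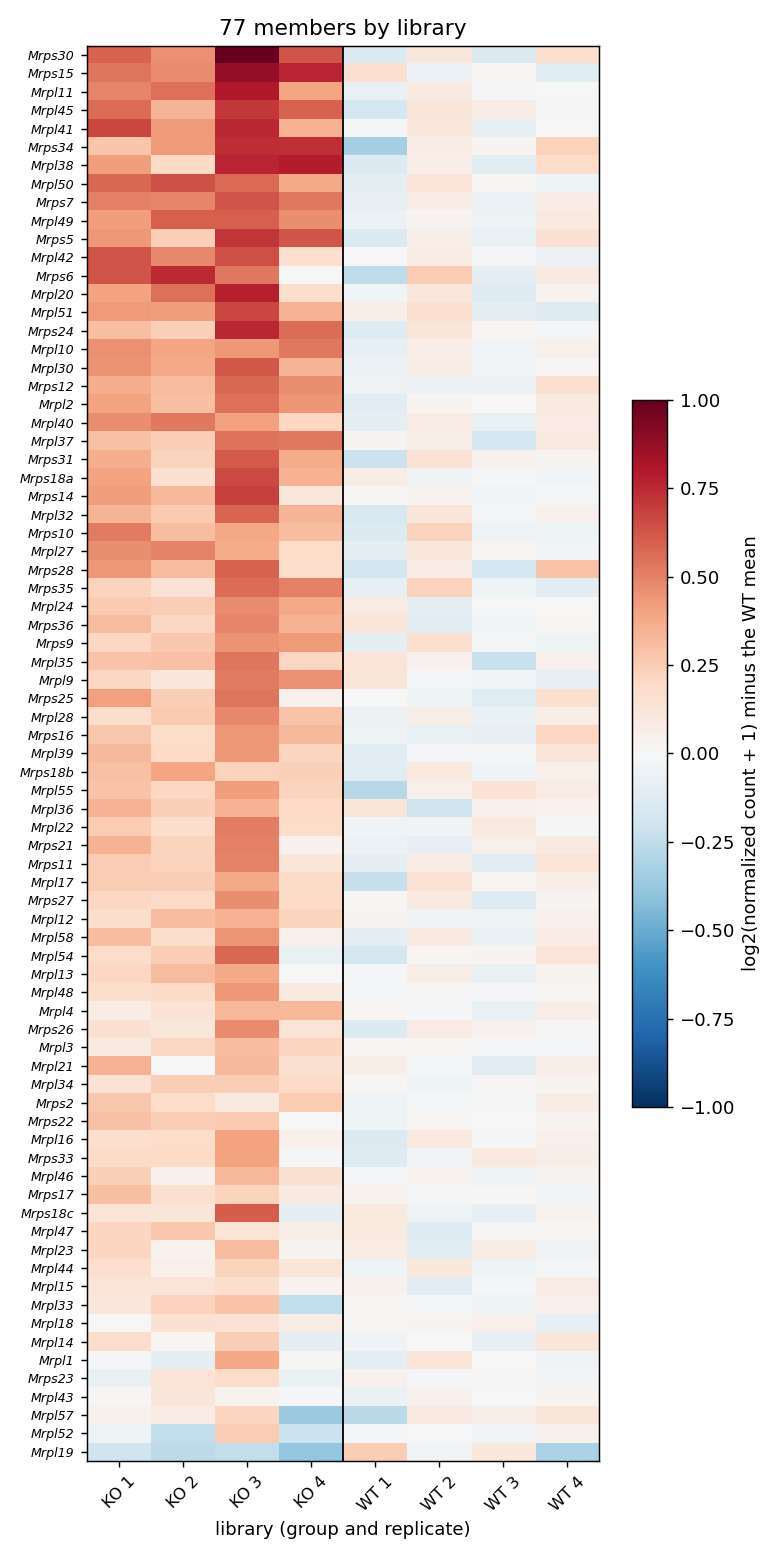
Difference of each member's log2(normalized count + 1) from its WT mean (colour, log2 units) in the 8 libraries (columns), with members ordered by fold change from top to bottom. KO replicate 3 has the darkest red in most rows, and the rows toward the bottom are paler.

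The rise was seen in each KO library, with KO replicate 3 ahead. The median difference of the 77 members from their WT mean was 0.29, 0.24, 0.47 and 0.20 log2 units in KO replicates 1 to 4, against -0.05, 0.05, -0.02 and 0.04 in WT replicates 1 to 4. All 4 KO medians lay above all 4 WT medians. KO replicate 3 was the highest KO library for 59 of the 77 members and KO replicate 4 the lowest for 36. As a sum, the members came to 61170, 60053, 69171 and 59205 normalized counts in KO and 47965, 50990, 48565 and 50754 in WT, a ratio of 1.26. As a share of all reads they took 0.217%, 0.208%, 0.190% and 0.206% in KO and 0.175%, 0.191%, 0.181% and 0.190% in WT, a ratio of 1.11. On this scale KO replicate 3, which had the highest sum, was the lowest KO library and equal to WT replicate 2 and WT replicate 4 within 0.001 percentage points. The share of all reads gave a smaller difference than the deposited factors.

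The other genes of mitochondrial translation were taken from lists. The counts of these and the later lists stand beside 20.2% of all genes tested that rose and 21.5% that fell. Of 5 mitochondrial ribosomal proteins with other symbols, 3 rose and 0 fell (median 0.36). Dap3, a GTP-binding protein of the small subunit, had 1642, 1605, 1657 and 1390 in KO and 1084, 1159, 1092 and 1288 in WT and rose by 0.45 (limma adjusted p = 0.00473). Ptcd3, of the small subunit, rose by 0.36 (limma adjusted p = 0.00384) and Gadd45gip1, of the large subunit, by 0.47 (0.00874), and neither overlapped between groups, while Aurkaip1 (0.21) and Chchd1 (0.06) did not pass. These 3 calls held when any single library was left out and were lost under scaling to total reads.

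Of 13 translation factors 6 rose and 0 fell, with a median log2 fold change of 0.23. Tsfm, the exchange factor of elongation factor Tu, had 593, 549, 679 and 674 in KO and 403, 438, 376 and 449 in WT and rose by 0.58 (limma adjusted p = 0.00281). Tufm, elongation factor Tu itself, averaged 2271 ± 215 in KO and 1695 ± 134 in WT (SD, n = 4 each) and rose by 0.42 (limma adjusted p = 0.00784). Mrrf, which recycles ribosomes, rose by 0.53 (limma adjusted p = 0.00769) and the release factor gene Mtrf1 by 0.54 (limma adjusted p = 0.0171). Leaving out single libraries gave 4 to 6 rises, and scaling to total reads gave 1.

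Of 20 genes for mitochondrial aminoacyl-tRNA synthesis 9 rose and 0 fell (median 0.27). Gatb, a subunit of the amidotransferase that makes glutaminyl-tRNA, changed more than any member of the ribosome. It had 754, 805, 733 and 631 in KO and 347, 371, 347 and 342 in WT, and the lowest KO library was well above the highest WT library (log2 fold change 1.05, SE 0.09, limma adjusted p = 0.000299). The synthetase genes Iars2 (0.56, limma adjusted p = 0.00147) and Fars2 (0.39, 0.00637) also rose. Without KO replicate 3 or WT replicate 3 the count was 5, and with total reads 3. Without KO replicate 3, Lars2, named for this, also passed as lower (log2 fold change -0.44, limma adjusted p = 0.0308), beside -0.15 (0.692) with all libraries.

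Of 25 ribosome assembly and rRNA modification genes 10 rose and 1 fell (median 0.28). Mtg1, a GTPase of ribosome assembly, had 722, 743, 882 and 764 in KO and 377, 512, 433 and 463 in WT and rose by 0.81 (limma adjusted p = 0.0011), and Mterf4, which acts with an rRNA methyltransferase, rose by 0.67 (0.00231). The pseudouridine synthase homologue Trub2 rose by 0.47 (limma adjusted p = 0.0084) and the rRNA chaperone Eral1 by 0.39 (limma adjusted p = 0.0111). Rpusd4, a pseudouridine synthase that acts on mitochondrial rRNA, was the member that fell, with 306, 326, 336 and 352 in KO and 534, 389, 434 and 410 in WT (log2 fold change -0.41, limma adjusted p = 0.02). Its call was lost without KO replicate 1 (limma adjusted p = 0.0549) and under quantile normalization (0.0673). With total reads 2 of the 25 rose.

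Of 22 genes for replication, transcription and RNA processing of mitochondrial DNA 10 rose and 0 fell (median 0.26), and with total reads 2 rose. Hsd17b10, a subunit of mitochondrial RNase P and also an enzyme of isoleucine breakdown, averaged 2598 ± 620 in KO and 1152 ± 148 in WT (SD, n = 4 each) and rose by 1.15 (limma adjusted p = 0.00172). The transcription factor Tfb2m rose by 0.65 (limma adjusted p = 0.00123), the poly(A) polymerase Mtpap by 0.40 (0.00351) and the tRNA-processing nuclease Elac2 by 0.39 (0.00322). Tfam, which packages mitochondrial DNA, at 0.16 and the RNA polymerase gene Polrmt at 0.03 did not pass (limma adjusted p = 0.101 and 0.775), both named for their roles after their values were seen.

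Of 10 nuclear factors credited with control of such genes, 1 rose and 1 fell at the RNA level. Of all genes tested, 20.2% rose and 21.5% fell. Mycl had 1232, 536, 2177 and 1904 in KO and 78.9, 146, 123 and 247 in WT and rose by 3.22 (limma adjusted p = 0.00153), and Myc had 273, 311, 335 and 240 in KO and 750, 415, 535 and 505 in WT and fell by 0.90 (limma adjusted p = 0.00562). Neither of these overlapped between groups. Ppargc1a, a coactivator of mitochondrial gene expression, had a log2 fold change of 0.51 (limma adjusted p = 0.0999) and did not pass, its KO values of 99.1 to 132 overlapping WT values of 60.5 to 112. Nrf1 (-0.14), Gabpa (0.01), Yy1 (0.04) and Esrra (-0.10), added for their roles, did not pass either.

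RNAs encoded in mitochondrial DNA were also measured, whereas the proteins that the ribosome makes were not. The mitochondrial rRNAs did not pass: mt-Rnr1, the RNA of the small subunit, had 5381, 4741, 14121 and 4920 in KO and 4692, 6054, 4434 and 5607 in WT. Only KO replicate 3 stood apart, and the other 3 KO libraries lay within the WT range. The rRNAs took on average 0.11% of reads in KO and 0.09% in WT, against 4.06% and 2.94% for the mitochondrial mRNAs. How well the libraries recovered rRNA was not tested, so these values may not reflect its level. Mitochondrial mRNAs rose in 11 of 13 cases and fell in 0 (median 0.61). Among them mt-Cytb had 143722, 124758, 192968 and 161703 in KO and 75909, 100736, 76925 and 72195 in WT, without overlap, and rose by 0.93 (limma adjusted p = 0.00434). The respiratory complex I genes mt-Nd6 (1.04), mt-Nd5 (0.86) and mt-Nd4 (0.79) rose with limma adjusted p-values of 0.002, 0.00374 and 0.00616. Single omissions gave 8 to 12 rises, and total reads 7.

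Nuclear genes for oxidative phosphorylation rose in 61 of 88 cases and fell in 3, with a median of 0.43. By the complex in their symbol, 30 of 38 rose for complex I, 7 of 8 for complex II and 7 of 9 for complex III. For complex IV it was 5 of 16 and for complex V 12 of 17. The complex II list includes assembly factors, and the symbols alone placed Ndufa4 and Ndufa4l2 under complex I. The complex IV genes that did not pass included some with low counts, such as Cox6b2 (mean 61.6 in KO, 47.9 in WT) and Cox7a1 (67.9 in KO, 49.2 in WT). Others were abundant, such as Cox4i1 (mean 12844 in KO, 10798 in WT) and Cox6c (2761 in KO, 2336 in WT). The part of expression level in these counts was not tested. Ndufa10 and Ndufv1 of complex I and Ndufs5 of the same complex rose by 0.66, 0.77 and 0.63 (limma adjusted p = 0.00116, 0.00182 and 0.00191), and Cox8a of complex IV by 0.79 (0.00247). The 3 that fell were Cox6a2, a subunit form of heart and skeletal muscle (-3.25, at 6.64 ± 7.18 in KO and 49.8 ± 14.3 in WT), Atp5g1 (-0.29) and Cox7a2l (-0.27). The calls of Atp5g1 and Cox7a2l were lost under 6 single omissions each. Without WT replicate 3 the list had 40 rises, and with total reads 32.

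Scaling did not turn these lists round: the medians of the 7 lists of mitochondrial mRNAs and proteins given above were positive under every setting tried, the lowest being 0.06 for translation factors with total reads.

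Cytosolic ribosomal proteins, which build the ribosomes outside mitochondria, had a median in the other direction. Of 83 tested, 0 rose and 21 fell, whereas 20.2% of all genes tested rose and 21.5% fell, so the falls were near the share of all genes. Every KO library lay below every WT library for 13 genes of the list, and for 21.1% of all genes tested. The median was -0.24 and was negative under every setting tried, from -0.41 to -0.20. Rps26 had 3575, 3656, 4312 and 3485 in KO and 6467, 6796, 6965 and 5797 in WT, well separated, and fell by 0.79 (limma adjusted p = 0.000734). Rpl37 fell by 0.57 (limma adjusted p = 0.00245) and Rpl10 by 0.42 (0.0102). Rpl3l, a form of heart and skeletal muscle, had a log2 fold change of -4.78 (0.00264). The number of falls was the least stable of these counts, at 7 without WT replicate 3, 51 without KO replicate 3 and 62 with total reads. These genes have many near-identical copies in the genome, so their values are uncertain to the extent that the counting split reads between copies.

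**Figure D4:**
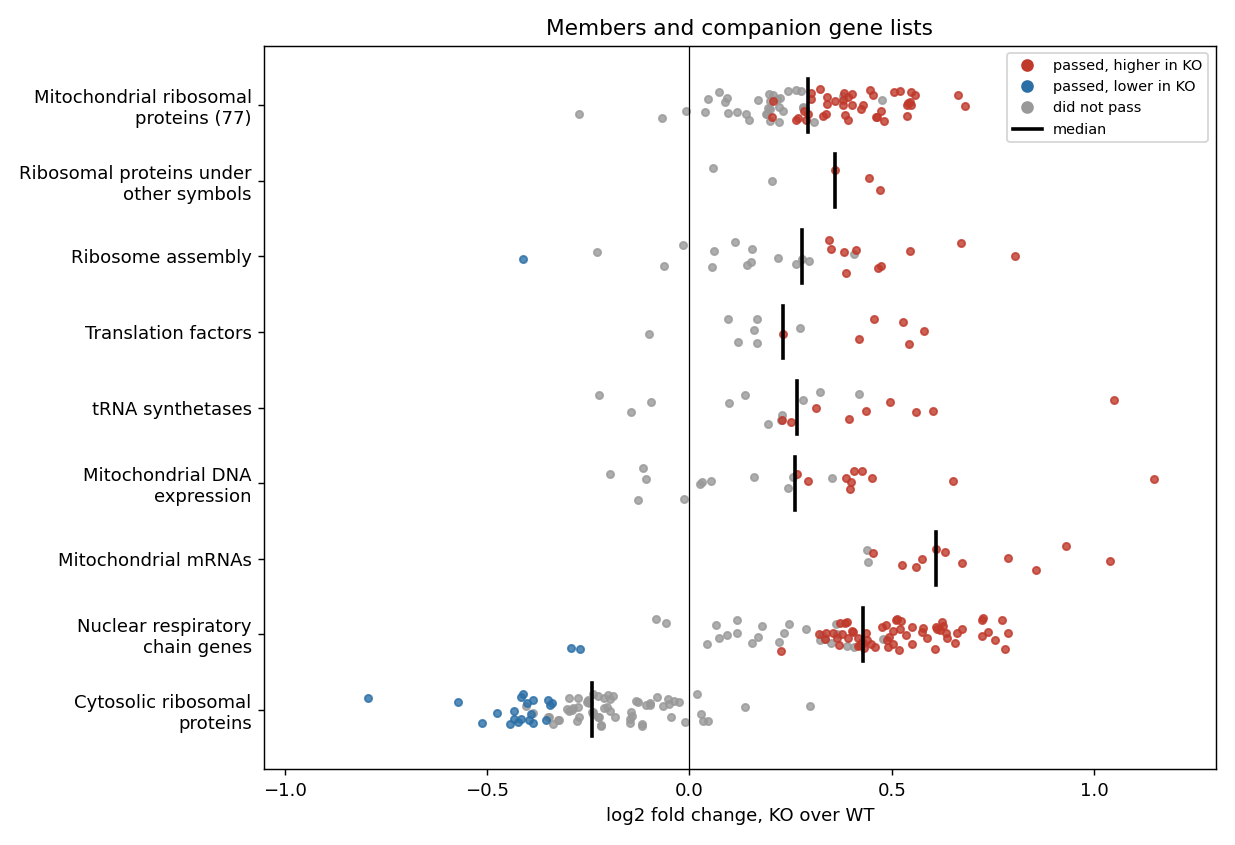
Log2 fold change (KO over WT, horizontal axis) of the genes tested in each list (rows), with red for genes that passed as higher, blue for genes that passed as lower, grey for the rest and a black bar at the median; 2 genes below -1, Cox6a2 and Rpl3l, are not drawn. The mitochondrial lists have medians from 0.23 to 0.61 and the cytosolic ribosomal proteins one of -0.24.

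Side by side in the same libraries, the lists kept an order. The median difference from the WT mean was 0.54, 0.41, 1.01 and 0.55 log2 units for mitochondrial mRNAs in KO replicates 1 to 4, against -0.15, 0.28, -0.07 and -0.08 in WT replicates 1 to 4. For nuclear genes of oxidative phosphorylation it was 0.37, 0.29, 0.72 and 0.34 in KO, against -0.13, 0.08, -0.04 and 0.10 in WT. In each KO library the mitochondrial ribosomal proteins were below both of these, and in each they were above the cytosolic ribosomal proteins, at -0.28, -0.35, 0.00 and -0.39 in KO and 0.09, -0.11, 0.02 and 0.00 in WT. KO replicate 3 was the highest KO library for all 4 lists.

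**Figure D5:**
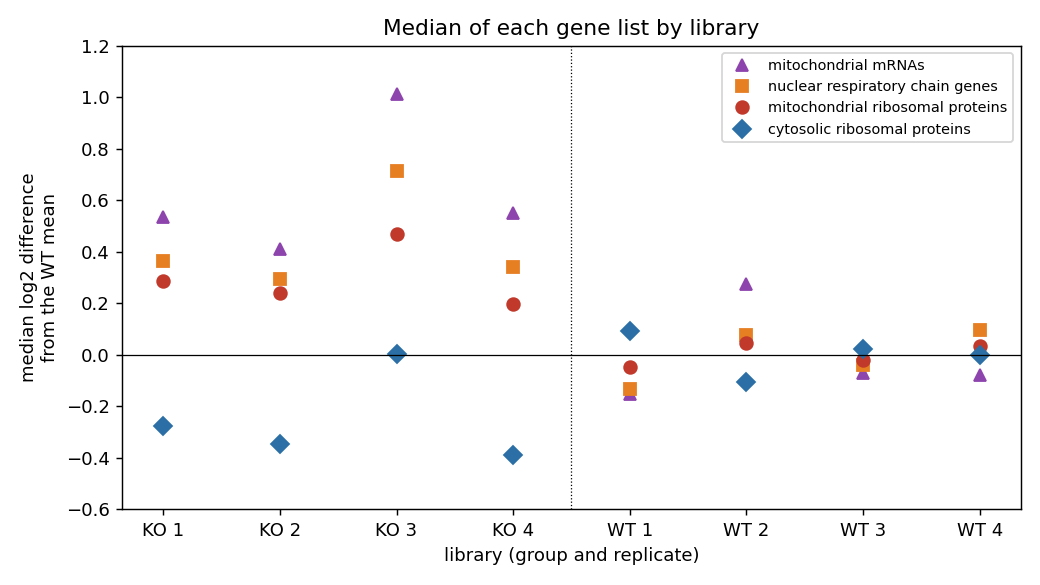
Median log2 difference from the WT mean (vertical axis, log2 units) of 4 gene lists in each library (horizontal axis, KO left and WT right of the dotted line). In every KO library mitochondrial mRNAs are highest and cytosolic ribosomal proteins lowest, and all 4 lists are shifted up in KO replicate 3.

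A feature of position was more frequent among the members than among all protein-coding genes tested, although most members lacked it. A protein-coding gene starting on the opposite strand within 1000 bp of the member's own start was present for 33 of 77 members, or 42.9%, beside 2159 of 14762 tested protein-coding genes, or 14.6%. Of members with such a neighbour 19 of 33 rose and of members without one 23 of 44. Of 31 neighbours tested, 4 rose and 8 fell, with a median log2 fold change of -0.12. Among all 14762 protein-coding genes tested, 3096 rose and 3454 fell, with a median of -0.02. Whether the neighbours differ from these was not tested. Mrpl49 and Fau, chosen after their values were seen, start 59 bp apart with the sequence printed above between them. Mrpl49, of the large subunit (chr19:6053622-6057785, minus strand), had 953, 1079, 1075 and 985 in KO and 682, 724, 687 and 757 in WT, while Fau, the source of a small-subunit protein of the cytosolic ribosome, had 5394, 5148, 7061 and 5377 in KO and 8094, 7356, 7762 and 7228 in WT. Neither gene overlapped between groups, and their directions were opposite, at 0.52 for Mrpl49 (limma SE 0.07, adjusted p = 0.0012) and -0.42 for Fau (limma SE 0.11, adjusted p = 0.0179). The Fau call was lost without KO replicate 1 (limma adjusted p = 0.0509) or WT replicate 3 (0.051). Mrpl36 and Ndufs6, picked in the same way, start 29 bp apart and both rose, by 0.28 (limma adjusted p = 0.036) and 0.50 (0.0113). The Mrpl36 call was lost without KO replicate 1, 2 or 3 or WT replicate 2, 3 or 4 (limma adjusted p = 0.0556 to 0.0912).

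Promoters of 68 members, 74 windows of 250 bases before to 50 bases after a start, were in the RefSeq table. The NRF1 motif was found on either strand in 17.6% of them, in 4.6% of all 32841 promoters and in 8.65% of the 14680 promoters of genes tested. The ETS motif CCGGAAGT, bound by GABP, was in 16.2%, 3.89% and 7.03% of the same 3 sets, and the YY1 motif AAGATGGCG in 10.8%, 1.4% and 2.55%. The oestrogen-related receptor motif TCAAGGTCA was in 0 of the 74 windows and in 0.42% of all promoters, and the E-box CACGTG in 9.5%, 7.15% and 9.37% of the 3 sets, where several windows of Mrpl2 hold it, so that 5 of the 68 genes (7.4%) had it. At least 1 of the NRF1, ETS and YY1 motifs was found for 31 of the 68 genes, and overlapping matches of 1 motif were counted as 1 promoter. Rises were counted by match: 8 of 13 genes with and 31 of 55 without an NRF1 match rose, 3 of 12 with and 36 of 56 without an ETS match, and 6 of 8 with and 33 of 60 without a YY1 match. A match is a match of letters and not a measured binding site. The median GC content was 58.5% for members' promoters, 52.7% for all promoters and 60.0% for those of genes tested.

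Some values carry a limit of counting. Exons of 32 members overlap those of another gene, 7 on the same strand and 27 on the opposite strand, and of these 32 members 14 rose (median 0.26), beside 28 of the 45 without overlap (median 0.34). The lowest member value was 184 reads, with an exact Poisson 95% interval of 158 to 213, and the highest was 1956 reads (1870 to 2045); the intervals cover counting error only.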

How the data were processed

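The deposited signal for each gene was a normalized count, with 1 column per library, and all 8 columns were assigned by sample name. Per the submitters' processing notes, which give no roles, STAR 2.7.7, DESeq2 and GRCm38.p6 are listed; a read counter, strand setting or filter is not given in the sources used here. Within each library, 100.0% of the values were whole multiples of 1 step (tolerance 0.01 read), which gave whole reads. Of the identifiers, 24558 matched GENCODE M21 with their version, 24802 without it, and 19 did not; coordinates and exon lengths are from that annotation.

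Limma 3.58.1 in R 4.3.3 was run on log2(normalized count + 1), with group as the only term and robust, trended moderation, over genes that reached 10 in 4 or more libraries; the scale understates changes of low genes. p-values were adjusted over all genes tested. Alternatives were a pseudocount of 8, no filter, quantile normalization, edgeR 4.0.16 (quasi-likelihood) and DESeq2 1.42.0 on the recovered reads, a replicate block, leaving out libraries and, added after seeing the data, scaling to total reads, members without exon overlap and principal transcript length. Tables and plots used Python 3.11.15, pandas 2.3.3 and matplotlib 3.10.9. No pair of libraries in a group matched within sampling noise (chi-square per degree of freedom of at least 27).

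The members, lists and tests were chosen with earlier results of these data known. Genes named by rule were Ccdc92, the 8 largest rises and 8 largest falls that passed, the Mrps18 genes, the 3 highest and 3 lowest per kb, Mrpl12, Mrpl58, Mrps36 and Mrps30, up to 4 genes with the smallest p per list, and those that passed against their list's direction if 5 or fewer. Not every gene under this rule is reported here. Mrpl53 was not analysed here. No promoter was used for 9 members.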

Additional observations from a re-analysis of the deposited data

Results flagged for a closer look

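In 6 of 154 sets of 4 libraries (77 members in each group), 1 library lay far from the other 3 by Dixon's test at its 95% critical value; chance flags about 1 in 20. The KO cases were Mrps26 in replicate 3, at 1102 against 861 to 884 in the other KO libraries, Mrps27 in replicate 3, at 501 against 412 to 418, and Mrps22 in replicate 4, at 377 against 449 to 464. The WT cases were Mrpl44 in replicate 2, at 566 against 511 to 518 in the other WT libraries, Mrps12 in replicate 4, at 595 against 512 to 515, and Mrps16 in replicate 4, at 478 against 393 to 401. Both high KO values were in the library with the largest share of reads in its 10 most abundant genes.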

How the results depend on the processing

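The median log2 fold change of the members was positive under all settings tried. Leaving out 1 library at a time gave 26 to 47 members higher and 0 to 1 lower. Without WT replicate 4 and KO replicate 3 together, 23 were higher and 1 lower, and 22 of these 23 were among the 42. With total reads, 10 were higher, 1 lower and the median was 0.12; quantile normalization, edgeR and DESeq2 kept all 42 and called 62, 50 and 55. The member called lower was Mrpl19 each time. Replicate numbers did not pair the libraries: same-numbered deviations correlated at -0.14, 0.05, -0.04 and 0.17, only number 4 matched its own number best, and a fit with the replicate number as a block called 27 members. Of 1232 member values under other settings, 21 changed sign, all of members that did not pass. With total reads these were Mrpl1 (-0.10), Mrpl14 (-0.084), Mrpl15 (-0.055), Mrpl18 (-0.08), Mrpl23 (-0.027), Mrpl33 (-0.079), Mrpl43 (-0.13), Mrpl44 (-0.032), Mrpl47 (-0.002) and Mrps23 (-0.13). With 1 library left out, Mrpl1 ran from -0.034 (without KO replicate 3) to 0.126 and Mrpl57 from -0.099 to 0.112. Without KO replicate 3 and WT replicate 4, Mrpl1 was -0.045 and Mrps23 -0.009. Mrpl52 was 0.01 with quantile normalization, and Mrpl57 was 0.067 with it, 0.019 in edgeR and 0.004 in DESeq2. The cause was not tested. The lowest member value, 184 reads, has an exact Poisson 95% interval of 158 to 213, which covers counting error only. The direction of changes near 0 such as those above is uncertain, and the part of depth in them was not tested.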

Other observations

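Processed pseudogenes of 3 members had 4 rows of their own. Mrpl23-ps1 had normalized counts of 307 to 399 in KO and 269 to 305 in WT (log2 fold change 0.24, limma adjusted p = 0.0992). Mrps36-ps1 had 75.8 to 97.8 in KO and 57.6 to 70.6 in WT, without overlap between groups, and did not pass (0.44, limma adjusted p = 0.0541). Mrpl48-ps, at 31.0 to 58.0 in KO and 29.7 to 45.9 in WT, had 0.16, and Mrps36-ps2, at 10.3 to 19.4 in KO and 9.36 to 23.2 in WT, had 0.02; neither passed (limma adjusted p = 0.621 and 0.965). The values of Mrpl23, Mrpl48 and Mrps36 are uncertain to the extent that reads were shared with these copies.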
